A study of Mus musculus with 12 samples.

Results

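The genes described here are 10 neighbours of Mbnl2 on mouse chromosome 14, chosen by symbol as genes lying within about 2 Mb of it. They are Abcc4, Dzip1, Dnajc3, Uggt2 and Hs6st3 at lower coordinates than Mbnl2 and Rap2a, Ipo5, Farp1, Stk24 and Dock9 at higher ones, 10 of the 24421 genes counted. All 10 were found in the count files and all 10 passed the filter on low counts, as 10 of 15622 genes tested. RNA was sequenced from the dorsal hippocampus of 12 male mice of strain 129sv/C57BL/6j, aged 4 to 5 months, after selection of polyadenylated RNA. The 4 groups of 3 libraries were trained Mbnl2 knockouts (KO), house control Mbnl2 KO mice, trained Mbnl2 wild-type (WT) mice and house control Mbnl2 WT mice. The labels do not describe the targeted allele, the training task or the time between training and dissection, and nothing in them says beyond the differing numbers in the titles that libraries came from separate animals. P-values therefore measure the spread between these libraries.

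The product of Mbnl2 is a muscleblind-like protein that binds RNA and controls alternative splicing in the brain. Genes that lie close together on a chromosome are rarely separated by recombination, so the DNA around a targeted gene is inherited together with it, and strains can differ in expression of a gene through its own nearby DNA. The neighbours of a targeted gene are for this reason commonly inspected beside the target itself. The question asked here is whether genes linked to Mbnl2 differed between the genotypes, and whether they differed with training. Which strain's DNA each mouse carried around Mbnl2 was not analysed here.

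The 10 members do not form a pathway. Dnajc3, a co-chaperone of the endoplasmic reticulum, and Uggt2, a relative of the glucosyltransferase that marks misfolded glycoproteins, act in protein folding. Dzip1 is a zinc finger protein needed for the assembly of primary cilia. Hs6st3 adds sulfate to heparan sulfate chains, and Abcc4 is an ATP-driven exporter of organic anions. Rap2a is a small GTPase, Farp1 and Dock9 are exchange factors that activate small GTPases, Stk24 is a kinase of the Ste20 family, and Ipo5 is an importin that carries proteins into the nucleus.

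The libraries held 19737929 to 27427076 counts each, and every member had at least 265 counts in every library. Libraries of a group differed from each other beyond counting error, with a chi-square per degree of freedom over genes of 14.9 to 105 in the 12 pairs, so all 12 were counted separately. All marker genes of dentate granule neurons and of CA1 pyramidal neurons, and the 8 of 9 listed CA3 markers found in the files, were detected in every library. The libraries differed widely in markers of neighbouring tissue: the summed level of 16 choroid plexus genes ran from 237 to 6722 counts per 1000000 (CPM) in the KO libraries and from 162 to 22777 CPM in the WT libraries. In these bulk samples, fewer cells of a type and less RNA per cell cannot be told apart.

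Mbnl2 itself had 509, 473 and 542 CPM in the trained KO libraries and 488, 470.1 and 454 CPM in the house control KO libraries. It had 360.4, 363 and 365 CPM in the trained WT libraries and 338, 315 and 324 CPM in the house control WT libraries. All 6 libraries labelled KO were above all 6 labelled WT, 1.42-fold on average over treatments (log2 fold change 0.51 with an SE of 0.05, adjusted p = 0.00626, quasi-likelihood test of edgeR). A count over the whole gene does not show which exons the reads came from, and the labels do not say which part the allele removes. The count of Mbnl2 therefore does not check the genotype labels, and KO and WT mean the libraries so labelled throughout.

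In the GENCODE annotation of GRCm38, the build to which the counts belong, Mbnl2 lies on the plus strand at chr14:120275669-120431697. Abcc4 lies 1.57 Mb away at chr14:118482692-118706219 on the minus strand. Dzip1 (chr14:118875520-118925460, minus strand), Dnajc3 (chr14:118937976-118981697, plus strand) and Uggt2 (chr14:118985039-119099430, minus strand) are consecutive genes 1.35, 1.29 and about 1.2 Mb from Mbnl2. Dzip1 and Dnajc3 start 12515 bp apart and run away from each other, and the ends of Dnajc3 and Uggt2 face each other 3341 bp apart. Hs6st3 (chr14:119138341-119869815, plus strand) follows Uggt2 after 38910 bp and ends 0.406 Mb before Mbnl2.

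On the other side, Rap2a (chr14:120478444-120507194, plus strand) is the nearest member, at 0.0467 Mb. Ipo5 (chr14:120911224-120947999, plus strand) lies at 0.48 Mb. Farp1 (chr14:121035200-121283744, plus strand) and Stk24 (chr14:121286343-121380011, minus strand) lie at 0.604 and 0.855 Mb, with their ends facing each other 2598 bp apart. Dock9 (chr14:121542046-121797837, minus strand) is at 1.11 Mb. The end of Dzip1 also faces that of Cldn10, 30 bp away. No source used here gives the strand setting with which reads were counted, so a read running past the end of Cldn10 and one from Dzip1 could not be told apart by strand.

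Dzip1 and Uggt2 were the members higher in KO at an edgeR adjusted p under 0.05, and Dnajc3 is the gene between them. The promoters of Dzip1, Dnajc3 and Uggt2 are therefore shown. Each is the RefSeq window (GRCm38.p6) of 300 bases, from 250 before to 50 after the start nearest to that in GENCODE, read 5′ to 3′ along the gene. The windows are chr14:118925421-118925720 on the minus strand for Dzip1, chr14:118937682-118937981 on the plus strand for Dnajc3 and chr14:119099385-119099684 on the minus strand for Uggt2. Capitals mark matches on either strand to the motifs described after the sequences.
Dzip1: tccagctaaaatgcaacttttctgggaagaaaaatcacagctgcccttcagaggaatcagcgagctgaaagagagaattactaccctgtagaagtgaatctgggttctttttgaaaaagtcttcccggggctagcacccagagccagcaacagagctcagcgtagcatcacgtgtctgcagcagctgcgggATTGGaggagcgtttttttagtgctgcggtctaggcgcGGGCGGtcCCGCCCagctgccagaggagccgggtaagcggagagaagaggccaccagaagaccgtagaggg
Dnajc3: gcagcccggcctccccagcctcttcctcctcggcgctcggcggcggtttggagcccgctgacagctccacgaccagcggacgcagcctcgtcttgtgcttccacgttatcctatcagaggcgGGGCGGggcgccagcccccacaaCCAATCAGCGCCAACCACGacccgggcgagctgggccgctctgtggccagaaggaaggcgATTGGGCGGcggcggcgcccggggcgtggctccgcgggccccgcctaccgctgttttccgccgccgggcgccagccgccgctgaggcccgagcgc
Uggt2: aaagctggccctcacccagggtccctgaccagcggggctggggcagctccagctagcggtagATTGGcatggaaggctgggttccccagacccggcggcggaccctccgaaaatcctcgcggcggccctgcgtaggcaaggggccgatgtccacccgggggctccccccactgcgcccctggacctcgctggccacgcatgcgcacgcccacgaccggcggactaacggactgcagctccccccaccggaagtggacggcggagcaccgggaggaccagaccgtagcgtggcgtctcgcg

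Among the 10 members, 8 matched a RefSeq window, with 14 windows in all, and Farp1 and Stk24 are named only. The motifs searched on both strands were the GC box GGGCGG, the CCAAT box CCAAT, the TATA box TATAAA, the cAMP response element TGACGTCA and the endoplasmic reticulum stress response element, which is CCAAT and CCACG with any 9 bases between them and so contains a CCAAT box. The Dnajc3 window held 1 match to the stress response element, which 0.119% of 32841 windows of the same length hold. It also held 2 GC boxes, 1 of which shares bases with its other CCAAT box. The Dzip1 window held 2 GC boxes and 1 CCAAT box, and that of Uggt2 held 1 CCAAT box and no GC box. Over all windows, 35.7% hold a GC box, 37.4% a CCAAT box, 13.6% a TATA box and 1.79% a cAMP response element, and the last 2 had no match in these 3 windows. The windows held 14 CpG dinucleotides for Dzip1, 39 for Dnajc3 and 30 for Uggt2, against a median of 7 over all windows. The Dnajc3 window thus had letters that those of its neighbours lacked, which is a description of sequence and not of binding.

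Between the genotypes, the mean over both treatments was taken first. Of the 10 members, Uggt2 and Dzip1 were called higher in KO, meaning an adjusted p under 0.05, and 0 were called lower. Called genes made up 0.576% of all 15622 genes tested, 0.384% of them higher in KO. The median log2 fold change was 0.11 over the members and -0.01 over all genes, and 7 of 10 members had a positive value against 48% of all genes. An unadjusted p under 0.05 was found for 4 members (Uggt2, Dzip1, Hs6st3 and Stk24) and for 14.4% of all genes.

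**Figure D1:**
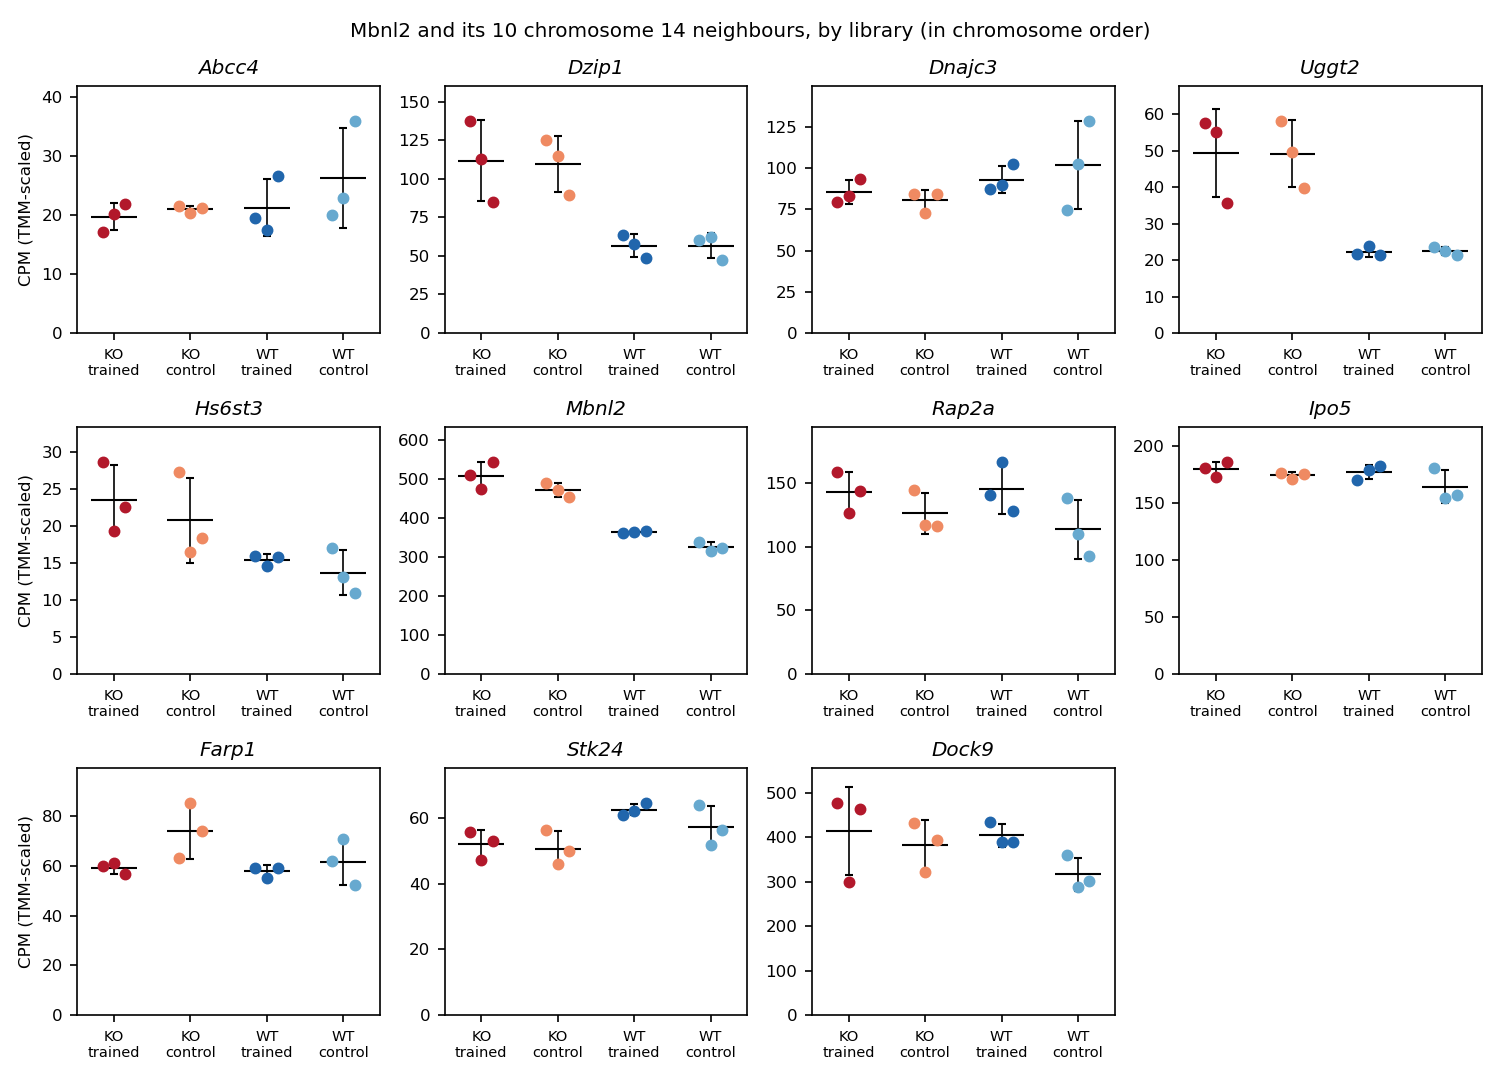
Level of Mbnl2 and of each of its 10 neighbours, in chromosome order, in CPM scaled by TMM, with 1 point for each library and 3 libraries a group, and horizontal lines and bars for the mean and SD. For Uggt2 the KO libraries sit between 35.7 and 58.1 CPM, all above the WT libraries, and for Dnajc3, which lies beside it, the genotypes overlap.

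Uggt2 had 57.6, 55.1 and 35.7 CPM in the trained KO libraries and 58.1, 49.7 and 39.9 CPM in the house control KO libraries. It had 21.6, 23.8 and 21.4 CPM in the trained WT libraries and 23.5, 22.6 and 21.4 CPM in the house control WT libraries. The groups did not overlap: the lowest KO library was 1 of the trained mice, and it lay above the highest WT library. Uggt2 averaged 49.3 ± 9.54 CPM in KO and 22.4 ± 1.08 CPM in WT (SD, n = 6 each). The KO level was 2.20-fold the WT level (log2 fold change 1.14, SE 0.13, 95% interval 0.86 to 1.42, edgeR adjusted p = 0.00867), and its unadjusted p ranked 4 among all genes tested, just after that of Mbnl2 at 3. The spread differed between the genotypes, with a coefficient of variation of 19.3% in KO and 4.83% in WT.

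Dzip1 had 137, 113 and 85.2 CPM in the trained KO libraries and 125, 115 and 89.7 CPM in the house control KO libraries. It had 63.4, 57.6 and 48.6 CPM in the trained WT libraries and 60.5, 62.4 and 47.2 CPM in the house control WT libraries. Here too every KO library was above every WT library. Dzip1 averaged 111 ± 20.2 CPM in KO and 56.6 ± 7.03 CPM in WT (SD, n = 6 each), a 1.96-fold difference (log2 fold change 0.97, SE 0.13, 95% interval 0.67 to 1.27, edgeR adjusted p = 0.0219). Uggt2 and Dzip1 were the 2 members without overlap between the genotypes, and 1.78% of all genes tested had none. The Dzip1 call was lost without the trained KO replicate 1 (adjusted p = 0.0553) and without the trained WT replicate 3 (0.0811), at log2 fold changes of 0.88 and 0.92. Without both house control WT replicates 2 and 3 and the house control KO replicate 3, the libraries with the highest summed thalamus markers, neither gene was called (edgeR adjusted p = 0.208 for Uggt2 and 0.229 for Dzip1), at log2 fold changes of 1.17 and 0.98. Without the 3 libraries highest in choroid plexus markers (both of those WT libraries and the trained WT replicate 3), a choice made after the data were seen, neither was called either (edgeR adjusted p = 0.378 for both), at log2 fold changes of 1.09 and 0.87. Each of these fits keeps 1 house control WT library, which is assumed to vary like the others, and called 1 gene in all.

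Dnajc3, the gene between them, had 79.5, 83.04 and 93.4 CPM in the trained KO libraries and 84.2, 72.7 and 84.3 CPM in the house control KO libraries. It had 87.3, 89.6 and 102 CPM in the trained WT libraries and 74.8, 103 and 128 CPM in the house control WT libraries. The ranges overlapped, and the means were 82.9 ± 6.77 CPM in KO and 97.6 ± 18.4 CPM in WT (SD, n = 6 each). Its log2 fold change was -0.24 (SE 0.12, 95% interval -0.49 to 0.02, edgeR adjusted p = 0.391). Relative to Dnajc3 in the same library, Uggt2 had 0.382 to 0.724 counts for each Dnajc3 count in KO and 0.166 to 0.314 in WT, with no overlap. The same ratio for Dzip1 ran from 0.912 to 1.73 in KO and from 0.368 to 0.809 in WT, again with no overlap. Both genes already had no overlap in CPM and Dnajc3 averaged lower in KO, so these ratios add no separate support. The ratio of Dzip1 to Uggt2 counts ran from 2.05 to 2.39 in KO and from 2.21 to 2.93 in WT, and these ranges overlapped.

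Hs6st3 had 28.6, 19.4 and 22.6 CPM in the trained KO libraries and 27.3, 16.5 and 18.4 CPM in the house control KO libraries. It had 16.0, 14.5 and 15.8 CPM in the trained WT libraries and 17.0, 13.1 and 10.9 CPM in the house control WT libraries. Only 1 KO library, the house control replicate 2, was below the highest WT library. The means were 22.1 ± 4.93 CPM in KO and 14.6 ± 2.23 CPM in WT (SD, n = 6 each). The ratio of 1.52 (log2 fold change 0.60, SE 0.15, 95% interval 0.26 to 0.94) did not pass the adjusted threshold by edgeR (adjusted p = 0.109) and passed it by DESeq2 (adjusted p = 0.0099), which called 5.04% of the genes it adjusted. The annotation places a small transcript, 1700006F04Rik, within Hs6st3 on the same strand, and it had at most 1 count in a library.

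Abcc4 had 17.1, 20.2 and 21.8 CPM in the trained KO libraries and 21.4, 20.4 and 21.1 CPM in the house control KO libraries. It had 19.4, 17.4 and 26.6 CPM in the trained WT libraries and 20.003, 22.9 and 35.8 CPM in the house control WT libraries. The genotypes overlapped, and the highest values belonged to replicate 3 of each WT group. The means were 20.3 ± 1.67 CPM in KO and 23.7 ± 6.74 CPM in WT (SD, n = 6 each), with a log2 fold change of -0.21 (SE 0.15, 95% interval -0.55 to 0.12, edgeR adjusted p = 0.551).

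Abcc4 is known from the choroid plexus, and the 2 libraries in which it was highest also had the highest summed choroid plexus markers, 22777 CPM in the house control WT replicate 3 and 11798 CPM in the trained WT replicate 3. The house control WT replicate 2 was next, with 11483 CPM of these markers and 22.9 CPM of Abcc4. All 16 choroid plexus markers had a negative genotype difference, with a median log2 fold change of -1.34 and 0 called. Each of the 16 had a count above 0 in every library, though the lowest was a count of 1. Without the 3 libraries highest in these markers, a choice made after the data were seen, the sign of both Abcc4 and Dnajc3 turned. The log2 fold change of KO over WT was then 0.080 for Abcc4 and 0.026 for Dnajc3. These 3 libraries are all WT and hold the 3 highest WT values of both genes, so leaving them out had to raise both fold changes. The part of choroid plexus RNA in either difference was not tested. Over the 12 libraries, Abcc4 and Dnajc3 varied together (Pearson r 0.825 on the log2 CPM scale, and 0.855 after removing group means), as a description over libraries that share this marker spread.

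The 5 members on the side of higher coordinates had 0 calls, against 2 of the 5 on the other side and 0.576% of all genes tested. At that share, 0 calls among 5 genes does not set a side apart. The log2 fold changes of the members at higher coordinates ran from -0.22 to 0.15, against -0.24 to 1.14 on the other side. Stk24 had 55.6, 47.2 and 52.9 CPM in the trained KO libraries and 56.3, 45.8 and 49.8 CPM in the house control KO libraries. It had 60.9, 62.2 and 64.4 CPM in the trained WT libraries and 63.9, 51.6 and 56.4 CPM in the house control WT libraries. All trained KO libraries were below all trained WT libraries, and the house controls overlapped. The lowest library of both KO groups was replicate 2, which was high in striatum and septum markers, and their part was not tested. Stk24 averaged 51.3 ± 4.37 CPM in KO and 59.9 ± 4.97 CPM in WT (SD, n = 6 each), and its log2 fold change of -0.22 (SE 0.07, 95% interval -0.38 to -0.07) had an unadjusted p of 0.00996 and an edgeR adjusted p of 0.189.

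Rap2a, the member nearest to Mbnl2, had 159, 126 and 143 CPM in the trained KO libraries and 145, 117 and 116 CPM in the house control KO libraries. It had 141, 166 and 128 CPM in the trained WT libraries and 138, 109.6 and 92.9 CPM in the house control WT libraries. The genotypes overlapped over most of their range, at 134 ± 17.1 CPM in KO and 129 ± 25.7 CPM in WT (SD, n = 6 each). The log2 fold change of Rap2a was 0.07 (SE 0.11, 95% interval -0.18 to 0.31, edgeR adjusted p = 0.834). That interval does not reach the estimates for Uggt2, Dzip1 or Hs6st3.

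The importin gene Ipo5 had 181, 172 and 185 CPM in the trained KO libraries and 176, 171 and 176 CPM in the house control KO libraries. It had 170.4, 179 and 182 CPM in the trained WT libraries and 181, 155 and 157 CPM in the house control WT libraries. Its means of 177 ± 5.47 CPM in KO and 171 ± 12.3 CPM in WT (SD, n = 6 each) gave a log2 fold change of 0.05 (SE 0.05, 95% interval -0.06 to 0.17, edgeR adjusted p = 0.682). Of the 10 members, Ipo5 had the narrowest 95% interval for this contrast.

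The exchange factor Farp1 had 60.0, 61.3 and 56.6 CPM in the trained KO libraries and 63.1, 85.3 and 73.9 CPM in the house control KO libraries. It had 59.4, 55.2 and 59.1 CPM in the trained WT libraries and 61.9, 70.9 and 52.5 CPM in the house control WT libraries. The genotypes overlapped, and the highest 2 values were house control KO libraries. Its log2 fold change was 0.15 (SE 0.09, 95% interval -0.04 to 0.34, edgeR adjusted p = 0.462).

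Dock9 had 477, 299.6 and 464 CPM in the trained KO libraries and 432, 321 and 393 CPM in the house control KO libraries. It had 435, 389 and 389 CPM in the trained WT libraries and 359, 287 and 303 CPM in the house control WT libraries. The genotypes overlapped, and replicate 2 was the lowest library of both KO groups, as it also was for Hs6st3, Stk24 and Ipo5. These 2 libraries had the highest summed striatum and septum markers of the series, 1651 and 1281 CPM. The part of that in the values of Dock9 and of the other members named was not tested. The log2 fold change of Dock9 was 0.15 (SE 0.12, 95% interval -0.12 to 0.43, edgeR adjusted p = 0.612).

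**Figure D2:**
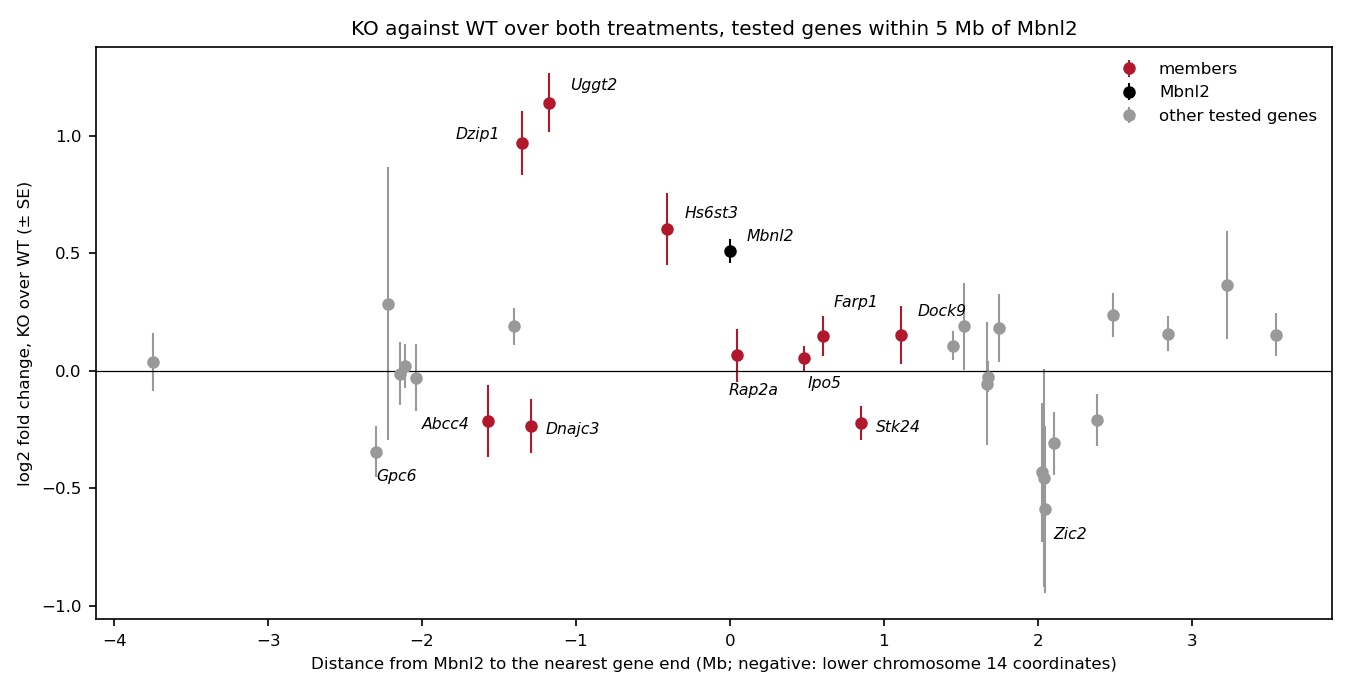
Log2 fold change of KO over WT, with its standard error, against distance from Mbnl2 for the tested genes within 5 Mb, with members in red, Mbnl2 in black and other genes in grey. Uggt2 at 1.14 and Dzip1 at 0.97 stand above Dnajc3 at -0.24, which lies between them, while the members at higher coordinates lie between -0.22 and 0.15.

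The difference between the genotypes did not follow distance from Mbnl2 among the members. The called genes were 1.35 and about 1.2 Mb away, while Rap2a, 0.0467 Mb away, had a log2 fold change of 0.07. Of 15 other annotated genes within 2 Mb, 6 passed the filter on low counts. Of the 6, 0 were called, against 0.576% of all genes tested, and 0 had genotypes that did not overlap, against 1.78%. Cldn10, a tight junction protein whose gene ends beside Dzip1, averaged 25.7 ± 2.41 CPM in KO and 22.5 ± 2.25 CPM in WT (SD, n = 6 each), with a log2 fold change of 0.19 and an edgeR adjusted p of 0.309 (unadjusted 0.0386). The log2 fold changes of the other 5 were 0.19 for Gpr183, an oxysterol receptor, 0.18 for Clybl, a mitochondrial lyase, 0.11 for Ubac2, -0.02 for Tm9sf2 and -0.05 for the noncoding A330035P11Rik. None of these 5 had an unadjusted p under 0.05.

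Farther along the chromosome, 0 of 15 tested genes at 2 to 5 Mb and 0 of 3 at 5 to 10 Mb were called. At 10 to 20 Mb, 1 of 21 was called, Commd6 at 18.6 Mb (log2 fold change 0.58, SE 0.09, edgeR adjusted p = 0.0294). It averaged 24.96 ± 2.78 CPM in KO and 16.8 ± 2.26 CPM in WT (SD, n = 6 each). Beyond 20 Mb, 4 of 478 were called: the serotonin receptor Htr2a at 45.6 Mb was higher in KO (log2 fold change 0.76), and the metalloprotease Bmp1 at 49.8 Mb (-0.59), the exchange factor Spata13 at 59.5 Mb (-0.55) and the signal peptidase subunit Spcs1 at 89.3 Mb (-0.29) were lower. The share called was 20% of the 10 members, 0.967% of the 517 tested genes of chromosome 14 beyond 2 Mb and 0.576% of all genes tested. The difference between these shares was not tested, since the members were chosen with earlier results of these data known.

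**Figure D3:**
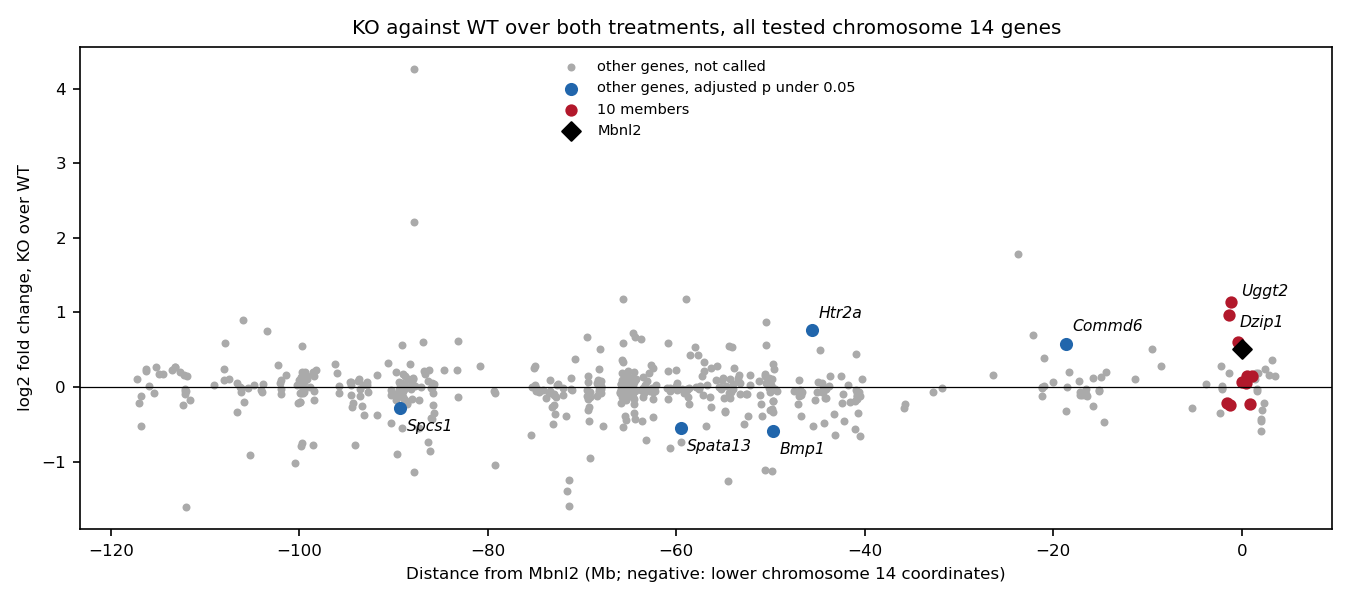
Log2 fold change of KO over WT for all tested genes of chromosome 14 against distance from Mbnl2, with members in red, Mbnl2 as a black diamond and other called genes in blue. Uggt2 at 1.14 and Dzip1 at 0.97 had the largest changes among the called genes of the chromosome, and the other called genes were spread from 18.6 to 89.3 Mb away.

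Within each treatment, Uggt2 and Dzip1 had nearly the same difference between the genotypes. For Uggt2 the log2 fold change of KO over WT was 1.15 (SE 0.18) in trained mice and 1.13 (SE 0.18) in house controls. For Dzip1 it was 0.98 (SE 0.19) in trained mice and 0.95 (SE 0.19) in house controls, and for Hs6st3 it was 0.61 (SE 0.22) and 0.60 (SE 0.22). With 3 against 3 libraries, edgeR called 0 members in either treatment. The adjusted p in trained mice was 0.134 for Uggt2 and 0.290 for Dzip1, and in house controls it was 0.119 and 0.202. Over all genes edgeR called 0.0128% in trained mice and 0.0128% in house controls. At an unadjusted p under 0.05 it found 4 members and 6.45% of all genes in trained mice, and 3 members and 10.7% of all genes in house controls.

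In the authors' deposited table for trained mice, Uggt2 had an adjusted p of 2.97e-05 and Dzip1 one of 0.000546, and in the authors' deposited table for house controls they had 6.86e-07 and 0.00057. Both genes were thus called in both deposited tables, which called 0.834% of the genes with an adjusted p in trained mice and 0.558% in house controls. DESeq2 run on all 12 libraries also called Uggt2 and Dzip1 in both treatments, against 0.752% of genes in trained mice and 1.39% in house controls. Hs6st3 had an adjusted p of 0.0936 in the authors' deposited table for trained mice and 0.445 in that for house controls. The other 7 members were called in none of these.

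Without overlap between KO and WT in trained mice were 4 members, Uggt2, Dzip1 and Hs6st3 above and Stk24 below, against 14% of all genes. In house controls there were 2, Uggt2 and Dzip1, against 13% of all genes. The interaction of genotype and treatment was not called for any member by edgeR or by DESeq2, and 0 members had an unadjusted p under 0.05, against 1.5% of all genes. Its 95% interval ran from -0.53 to 0.57 for Uggt2 and from -0.56 to 0.62 for Dzip1 on the log2 scale, so a moderate interaction could not have been seen with these libraries.

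**Figure D4:**
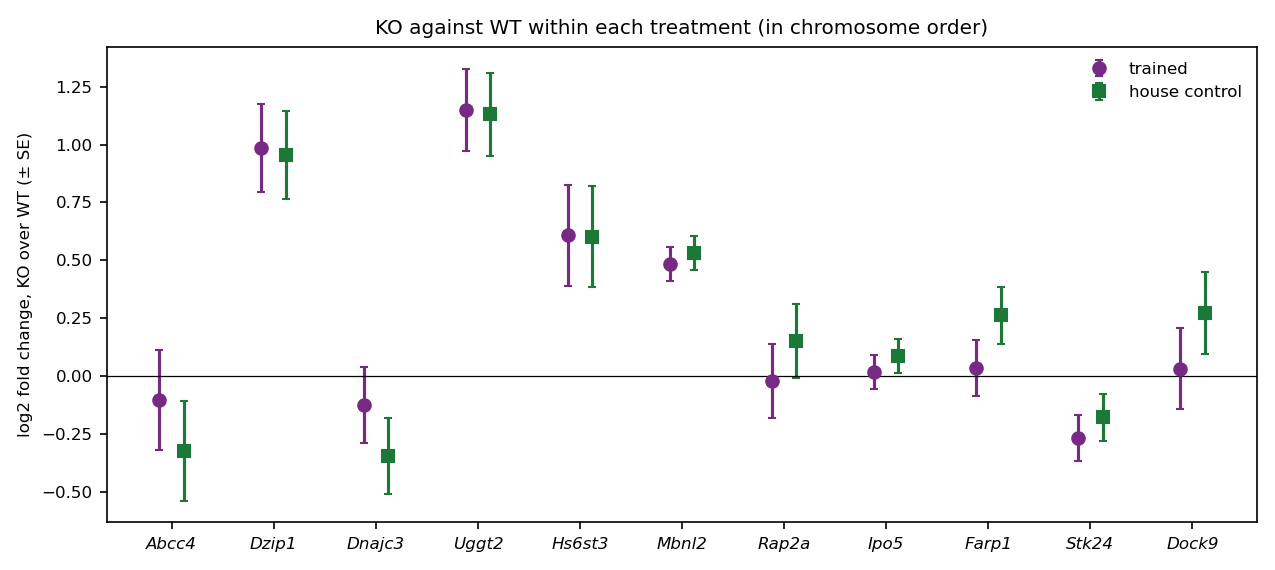
Log2 fold change of KO over WT, with its standard error, for each gene in chromosome order, in trained mice (circles) and house controls (squares). Uggt2 stands at 1.15 in trained mice and 1.13 in house controls and Dzip1 at 0.98 and 0.95, and the error bars of the treatments overlap for each of these genes.

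Training was compared with house control over both genotypes. By edgeR 0 members were called, against 0% of all genes, and by DESeq2 0 members were called, against 0.483% of the genes it adjusted. Trained and house control libraries overlapped for all 10 members, and 0.486% of all genes had no overlap. At an unadjusted p under 0.05, edgeR found 2 members and 11.2% of all genes. Rap2a averaged 1.20-fold the house control level in trained mice (log2 fold change 0.26, SE 0.11, 95% interval 0.02 to 0.51, unadjusted p = 0.0394, edgeR adjusted p = 0.441). Farp1 had a log2 fold change of -0.21 (SE 0.09, 95% interval -0.40 to -0.02, unadjusted p = 0.0362, edgeR adjusted p = 0.436). For Uggt2 the training difference was 0.00 (SE 0.12, 95% interval -0.28 to 0.27) and for Dzip1 it was 0.01 (SE 0.13, 95% interval -0.29 to 0.31), both within a range well below their genotype differences.

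Within KO mice, the 3 trained libraries had 56.6 to 61.3 CPM of Farp1 and the 3 house controls 63.1 to 85.3 CPM, without overlap. Its log2 fold change there was -0.32 (SE 0.12, unadjusted p = 0.0244), and it was the only member without overlap, against 7.88% of all genes. Within WT mice, Dock9 was the only member without overlap, at 389 to 435 CPM in trained libraries and 287 to 359 CPM in house controls, against 14.8% of all genes (log2 fold change 0.35, SE 0.18, unadjusted p = 0.0698). EdgeR called 0 members with training in either genotype, against 0% of all genes, and at an unadjusted p under 0.05 it found 1 member and 3.01% of all genes in KO mice, and 0 members and 9.82% in WT mice. DESeq2 called 0 members, against 0.0449% of genes in KO mice and 0.0734% in WT mice, and the authors' deposited tables called 0, against 0.0716% and 0.117%. The training comparisons share these libraries with the genotype comparisons.

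The numbers in the sample titles fall into a lower range with 8 libraries and a higher range with 4, each split evenly between the genotypes and the treatments. The labels do not say what the ranges stand for. Replicate 3 of each group belongs to the second range and was the lowest of its group for Dzip1 in all 4 groups. Dzip1 averaged 87.4 CPM in KO and 47.9 CPM in WT in the second range, and 122 CPM in KO and 61.0 CPM in WT in the first. The KO level was thus 1.82-fold the WT level in the second range and 2.01-fold in the first. Uggt2 averaged 37.8 CPM in KO and 21.4 CPM in WT in the second range, and 55.1 CPM in KO and 22.9 CPM in WT in the first, or 1.76-fold and 2.41-fold.

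A fit with means for each genotype in each range, chosen after the data were seen, called Uggt2 and Dzip1 in both ranges. It took the spread of each gene from both ranges together, and the second range had 2 libraries a genotype. The edgeR adjusted p was 0.0228 for both genes in the second range, where 0.0256% of all genes were called. In the first range it was 1.45e-05 for Uggt2 and 0.000143 for Dzip1, and 0.0576% of all genes were called. With the libraries of the first range fitted alone, by the 4 group means, edgeR called Uggt2 but not Dzip1. The genotype difference of Uggt2 was smaller in the second range than in the first by 0.45 on the log2 scale (SE 0.12, unadjusted p = 0.00282), which did not pass adjustment over all genes (edgeR adjusted p = 0.895). Hs6st3 had a KO to WT ratio of 1.53 in the second range and 1.51 in the first, and Abcc4 had 0.687 and 0.992.

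**Figure D5:**
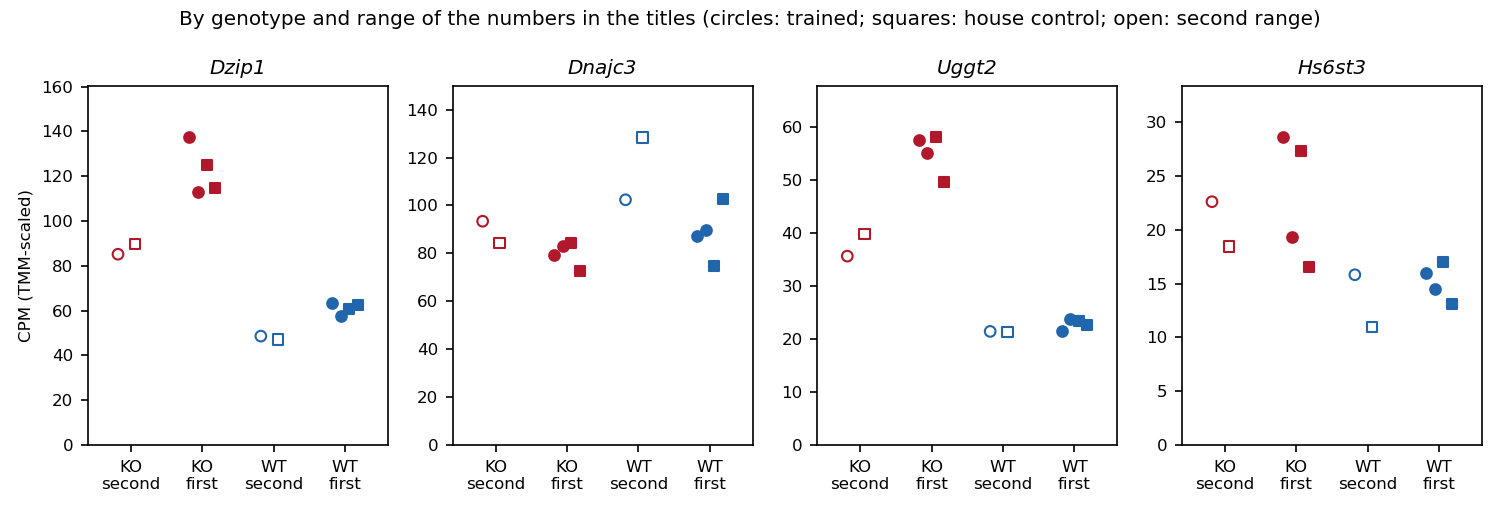
CPM of Dzip1, Dnajc3, Uggt2 and Hs6st3 by genotype and by the range of the numbers in the titles, with open symbols for the second range (2 libraries a genotype) and filled symbols for the first (4 a genotype). The KO libraries of the second range have 35.7 to 39.9 CPM of Uggt2, below the 49.7 to 58.1 CPM of the first range and above all WT libraries.

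Levels of different members were compared in WT mice as CPM for each kilobase of annotated exon. Rap2a was highest at 30.8 ± 6.13, followed by Ipo5 at 28.4 ± 2.05, Dock9 at 27.2 ± 4.26 and Dnajc3 at 18.98 ± 3.58 (SD, n = 6). The ranges of neighbours in this order overlapped as far as Dnajc3, which lay above Stk24 at 11.2 ± 0.93 without overlap. Farp1 at 10.8 ± 1.16 and Hs6st3 at 8.53 ± 1.30 overlapped with their neighbours above them, and Hs6st3 lay above Dzip1 at 5.37 ± 0.67. Abcc4 at 3.71 ± 1.05 overlapped with Dzip1, and Uggt2 was lowest at 1.75 ± 0.08, below Abcc4 without overlap. In KO mice the mean of Uggt2 on this scale was 3.86 and that of Dzip1 was 10.5. In WT mice the called members thus ranked 8 (Dzip1) and 10 (Uggt2) among the 10 by level per length.

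Relatives of the members at other loci showed no call. Of 23 relatives, all tested, 0 were called in either direction, against 0.576% of all genes tested. At that share, 0 calls is the usual outcome for a list of this size. Of the 23, 9 had a positive log2 fold change, and the median was -0.02. The smallest unadjusted p-values belonged to Dzip1l, the closest relative of Dzip1, with 19.6 ± 1.86 CPM in KO and 17.3 ± 1.16 CPM in WT (log2 fold change 0.18, edgeR adjusted p = 0.308), to Dock10 with 135 ± 23.5 CPM in KO and 168 ± 33.1 CPM in WT (-0.31, 0.381), and to Rap2b with 108 ± 9.54 CPM in KO and 94.6 ± 14.1 CPM in WT (0.19, 0.397). Uggt1, the glucosyltransferase related to Uggt2, had 75.4 ± 3.39 CPM in KO and 70.6 ± 6.32 CPM in WT (SD, n = 6 each, log2 fold change 0.10, edgeR adjusted p = 0.452). Reads shared between such relatives are uncertain, as no source used here says how reads with several matches were counted.

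Genes of protein folding in the endoplasmic reticulum, the setting of Dnajc3 and Uggt2, had 0 calls of 22 tested, against 0.576% of all genes. For a list of this size that is again the usual outcome. Of the 22, 10 had positive values, and the median was -0.02. The smallest unadjusted p-values were those of Sel1l, an adaptor of the degradation of misfolded proteins (log2 fold change 0.15, edgeR adjusted p = 0.431), the lectin chaperone Canx (-0.08, 0.443), Uggt1 and the stress kinase Eif2ak3 (0.09, 0.530). Training called 0 genes of either list by edgeR, against 0% of all genes.

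Over the 12 libraries, the gene whose log2 CPM was most like that of Uggt2 among all genes tested was Dzip1, with a Pearson r of 0.975. After removing group means the r of this pair was 0.836. Next came Fam205c on chromosome 4 (r 0.966), Commd6 on chromosome 14 (0.931), Arhgap33 on chromosome 7 (0.929) and Fgf11 on chromosome 11 (0.92). All 5 were called higher in KO, and the libraries share the genotype split, so the values over the 12 libraries describe in part the same difference. The r of 0.836 for Uggt2 and Dzip1 leaves the group means out. Replicate 3, of the second range of title numbers, was the lowest library of both KO groups for both genes. The part of that range in this r was not tested. For Farp1, the member with the smallest unadjusted p with training, the most alike were Pgm1 (r 0.916), 4632415L05Rik (0.893), Lair1 (0.874), AF529169 (0.869) and Phkg1 (0.863), of which 0 were called with training by edgeR.

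Markers of cell types and neighbouring tissue were set beside these results. Striatum and septum markers had 11 of 12 positive genotype differences with 0 called and a median log2 fold change of 1.00, at summed levels of 290.3 to 1651 CPM in KO and 281 to 1138 CPM in WT. Leptomeningeal fibroblast markers had 0 of 14 positive with 0 called and a median of -0.89, at 234 to 738 CPM in KO and 222 to 1956 CPM in WT. Microglia markers had 10 of 11 positive with 0 called and a median of 0.10, at 385 to 616 CPM in KO and 417 to 482 CPM in WT. Without both KO replicates 2, the libraries highest in striatum and septum markers, Uggt2 was called (log2 fold change 1.10, edgeR adjusted p = 0.0436) and Dzip1 was not (0.96, 0.0716). Thalamus markers had 2 of 11 positive with 0 called and a median of -0.45. Their sums were 266 to 660 CPM in KO and 328 to 727 CPM in WT. Neocortex markers had 6 of 8 positive with 0 called and a median of 0.41. Their sums were 96.9 to 243 CPM in KO and 90.2 to 132 CPM in WT. CA1 pyramidal neuron markers had 8 of 9 positive genotype differences with 0 called and a median of 0.49. Their summed levels were 505 to 893 CPM in KO and 359 to 704 CPM in WT. Dentate granule neuron markers had 0 of 11 positive and a median of -0.43. Their sums were 508 to 1209 CPM in KO and 744 to 1650 CPM in WT. Ependymal markers, from ciliated cells that could hold Dzip1, had 0 of 9 positive and a median of -0.59. Their sums were 24.2 to 70.1 CPM in KO and 8.35 to 164 CPM in WT. Of the 9, 0 were at 0 in any library, though the lowest was a count of 1. The ranges of all these sums overlapped between the genotypes, which does not show that the content of these cells was equal. The part of the CA1, dentate, neocortex, leptomeningeal, microglia and ependymal levels in the Dzip1 and Uggt2 differences was not tested.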

How the data were processed

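For each of 12 libraries the authors deposited unnormalized read counts for 24421 gene symbols. Per the submitters' processing notes the build was mm10 and the tools, whose roles are not recorded, were DESeq2 1.18.1, HTSeq 0.9.1, TopHat2 2.1.1, Bowtie2 2.3.4.2 and cutadapt 1.18. Per the labels' protocols, poly(A) RNA went into NEBNext Ultra II libraries. In 4 comparison tables, the authors deposited for each gene a mean signal after normalization, a log2 fold change with its error, the score of the test, and a p-value before and after adjustment.

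From these counts, edgeR 4.0.16 in R 4.3.3 kept 15622 genes (filterByExpr, minimum count 10, total 15) and scaled libraries by TMM. It then fitted 1 robust quasi-likelihood model with a mean for each of 4 groups (8 residual degrees of freedom), from which 7 contrasts were taken. Benjamini-Hochberg adjustment covered all 15622 genes, and a gene was called at an adjusted p under 0.05. The F statistic gave the standard errors and 95% intervals. CPM values use the TMM-scaled totals. A count of 3 is 0.109 to 0.152 CPM. Groups came from the labels, and replicates are numbered by accession, which pairs none of them. The test was checked on simulated counts. Coordinates are from GENCODE M21, which matched 96.1% of tested symbols, and promoters from RefSeq.

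Members, lists and alternatives (DESeq2 1.42.0, other scaling, no filter, title number range, libraries left out) were chosen with earlier results of these data known. All members, the tested genes within 2 Mb of Mbnl2, up to 5 called genes farther along chromosome 14, the 3 relatives and 4 folding genes with the smallest unadjusted p, and the 5 genes most like Uggt2 and Farp1 are named by rule.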

Additional observations from a re-analysis of the deposited data

Results flagged for a closer look

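Each of the 10 members and Mbnl2 was checked among the 6 KO, the 6 WT, the 6 trained and the 6 house control libraries. Abcc4 gave both values that stood apart from the other libraries of such a set, by the gap to the nearest of them. Among the 6 KO libraries, the trained replicate 1 had 17.1 CPM, and the next lowest had 20.2 CPM. Among the 6 house control libraries, the WT replicate 3 had 35.8 CPM, and the next highest had 22.9 CPM. That library also had the highest summed choroid plexus markers of the series, 22777 CPM, and the part of these in the value was not tested. Chance flags about 1 in 20 such checks, so a few flags can arise by chance over all of them.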

How the results depend on the processing

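No paired analysis was possible because the labels give no replicate numbers and no animals shared between groups. For KO against WT over both treatments, the count of 2 members called ran from 1 to 2 when 1 library was left out. It was 1 with the lower range of title numbers alone (Dzip1 adjusted p = 0.0757) and without both KO replicates 2 (0.0716), and 0 without the 3 libraries highest in thalamus markers and, chosen after the data were seen, 0 without the 3 highest in choroid plexus markers. In both of these 1 house control WT library is left and assumed to vary like the others, and fewer libraries were fitted in each. DESeq2 called 3. Uggt2 was called in all 12 fits that left out 1 library (adjusted p 0.0011 to 0.0408) and Dzip1 in 10 of 12 (0.0132 to 0.0811). Mbnl2 was called in all 12 of these too (edgeR adjusted p 0.0055 to 0.0363). Its call was lost in 3 of the 8 other settings, with log2 fold changes of 0.48 to 0.54 over the 8.

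In trained mice and in house controls, where 0 members were called, 2 (Dzip1 and Uggt2) were called with the title number range as a covariate and 2 by DESeq2, and 0 to 1 when 1 library was left out, with Uggt2 called only without the trained KO replicate 3. The cause was not tested. DESeq2 called 0.752% of the genes it adjusted in trained mice and 1.39% in house controls. The shares of all genes called within a treatment by the covariate and leave-out fits are not given here, so those member calls stand without a comparison. The sign turned for Rap2a (-0.051) and Ipo5 (-0.022) without the 3 thalamus-rich libraries, for Rap2a (-0.119), Ipo5 (-0.0072), Abcc4 (0.080) and Dnajc3 (0.026) without the 3 choroid-rich ones, and for Rap2a (-0.012) in the lower range alone. Counts of members called with training or for the interaction, and of other genes near Mbnl2, were 0 in every alternative run. Over all genes, 60 higher and 30 lower in KO became 512 and 213 by DESeq2, 128 and 48 with the covariate and 42 and 17 without the filter. No scaling moved the median of all genes by over 0.1. The members had at least 265 counts in each library, and what a greater depth would change was not tested.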
